A study of Mus musculus with 8 samples.

Results

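The genes described here are 36 targets of the transcription factor p53, with the gene of p53 itself (Trp53) among them, out of 24421 gene symbols counted in mouse skin keratinocytes. They were taken by symbol from a list that was chosen with earlier results of these data known, and all 36 had a row of counts. They were grouped by their textbook role into feedback on p53 (6 genes), cell cycle arrest (8), apoptosis (13), metabolism (6) and repair (3). Bulk RNA sequencing gave 4 control libraries (InvEE K5 Cre- HMGB1 fl/fl) and 4 knockout libraries (InvEE K5 Cre+ HMGB1 fl/fl) from skin of the strain CBA x C57Bl/6J, with no age or treatment named. All 8 carry the floxed Hmgb1 allele and the InvEE transgene, in which the involucrin promoter drives constitutively active MEK1 in the upper layers of the epidermis. The knockouts also carry Cre under the promoter of keratin 5, which acts in basal keratinocytes and their descendants. An effect of Cre itself and the loss of Hmgb1 cannot be told apart, because no control has Cre. The comparison asks which of the p53 arms differs between the genotypes.

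p53 is kept low in resting cells by Mdm2, a ubiquitin ligase that p53 itself induces, together with the related inhibitor Mdm4. After DNA damage, oncogene activity or nutrient stress it accumulates and switches on genes that stop the cell cycle (above all Cdkn1a, which encodes the CDK inhibitor p21), promote apoptosis, restrain growth through mTORC1 or repair DNA. In the epidermis p53 is known for the response to ultraviolet light. Several of its targets, among them Perp and Sfn, have steady roles in stratified epithelia, and most of the targets also answer to other factors.

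p53 binds a pair of 10-base elements (decamers), and the promoters of the members were searched for exact matches to the p53 decamer consensus. It is its own reverse complement, so a match lies on both strands. RefSeq promoters (GRCm38.p6, which underlies mm10) span 250 bases before to 50 after a start site, and 30 of the 36 members had an entry. Trp53inp1, Perp, Pmaip1, Tnfrsf10b, Zmat3 and Rrm2b were missing. Of the 30 members 12 (40.0%) had a decamer in at least 1 promoter, against 8.25% of the tested genes in the table. By promoter the shares were 33.3% of 39 for the members, 6.87% of 12607 for the tested genes and 8.36% of all 32851 in the table. Among the members with an entry, the 12 were 4 of 5 feedback genes (Trp53, Mdm2, Ccng1 and Ppm1d), 3 of 8 arrest genes (Cdkn1a, Gadd45a and Gtse1), 3 of 9 apoptosis genes (Aen, Bax and Ei24), 1 of 6 metabolism genes (Sesn1) and 1 of 2 repair genes (Polk). A match of letters is a description and not a binding site, and the members were listed as targets to begin with. The 2 members that have a decamer and also passed the expression test described below are shown first. They are followed by the feedback genes, and each decamer stands in capitals, 5′ to 3′ on the strand of the gene. Cdkn1a (chr17:29090896-29090947, plus strand) has 2 decamers 12 bases apart, beginning 73 and 51 bases before the first of its listed start sites, which lies 2790 bases before the second. The 10 bases directly after its second decamer differ from the consensus at 1 position, so the search did not mark them. The spacing of 12 bases is thus that of exact matches only. The decamer of Aen (chr7:78895927-78895956, plus strand) begins 121 bases before a start site, in an annotated exon of a longer Aen transcript. Those of Mdm2 (chr10:117710925-117710954, minus strand) and Ccng1 (chr11:40755452-40755481, minus strand) begin 186 and 185 bases before the start. Those of Ppm1d (chr11:85311112-85311141, plus strand) and Trp53 (chr11:69580274-69580303, plus strand) begin 132 and 75 bases before it.
Cdkn1a: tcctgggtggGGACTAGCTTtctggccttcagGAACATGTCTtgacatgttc
Aen: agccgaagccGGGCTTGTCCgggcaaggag
Mdm2: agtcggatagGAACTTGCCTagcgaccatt
Ccng1: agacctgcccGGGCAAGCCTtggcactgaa
Ppm1d: gggcgggggcGAGCTTGCTCttcttgactc
Trp53: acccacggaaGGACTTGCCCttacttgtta

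The libraries held 30506676 to 34229030 counts on genes each. Hmgb1, the targeted gene, was at 565.5 to 615 CPM (counts per 1000000 of the TMM-scaled library total) in the control group and 113.4 to 126.2 CPM in the knockout group. Basal keratinocyte markers were abundant, with a summed level of 47320 to 54510 CPM in controls and 47530 to 56900 CPM in knockouts over 6 genes, and none of the 6 passed the test. Suprabasal markers were higher in every knockout library, with summed levels over 7 genes of 8604 to 13830 CPM in controls and 14790 to 19290 CPM in knockouts, and Krt10, Sbsn and Dmkn passed the test among the 7 tested. Hair follicle markers were lower in every knockout library, at 204.4 to 266.2 and 129.4 to 160.4 CPM over 6 genes, and Lgr5 and Lgr6 passed among the 5 tested. Markers of leukocytes summed to at most 43.56 CPM in any library, those of Langerhans cells to at most 48.05 CPM and those of fibroblasts to at most 23.99 CPM, with 1 of 4 tested fibroblast genes (Dcn) higher. Endothelial, neutrophil, melanocyte, Merkel and Schwann cell markers summed to at most 10.35 CPM each. Those of Merkel and Schwann cells were lower in every knockout library, at levels of at most 1.815 CPM, and no listed marker was at 0 in all libraries. Counts on Y-linked genes were 6380, 6110 and 6743 in control replicates 2 and 3 and knockout replicate 1, and 0 to 51 in the other 5 libraries, while the labels give no sex. The first 3 are called Y-high and the other 5 Y-low below, with the line drawn at 1000 counts. In bulk RNA, fewer cells of a type and less RNA per cell cannot be told apart. The part of these differences in the values below was not tested.

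Of the 36 members, 35 passed the filter on low counts. Among these, 6 were higher in the knockout and 1 was lower at an adjusted p under 0.05 (quasi-likelihood test of edgeR, Benjamini-Hochberg over 13016 genes), and 28 did not pass. The 6 were Trp53inp1, Cdkn1a, Perp, Aen, Phlda3 and Ddit4, and the 1 was Plk3. That is 20% of the members, against 8.87% of all tested genes, with 17.1% higher against 4.33% and 2.86% lower against 4.54%. The members' median log2 fold change was 0.20, against -0.02 over all tested genes, and 26 of the 35 (74.3%) had a positive value against 46.9%. At an unadjusted p under 0.05 there were 19 members (54.3%), against 26.2% of all genes. The members' share of calls was thus above that of all genes in the upward direction and not in the downward one. This is a description, because the members were chosen with earlier results of these data known. With library totals in place of TMM scaling, the members still split into 6 higher and 1 lower, while the calls over all genes went from 563 higher and 591 lower to 370 (2.84%) and 997 (7.66%), and with upper-quartile scaling to 460 and 723. With library totals the median over all genes was -0.13, that of the members was 0.09 and 20 of the 35 were positive. The lead of the members over all genes was thus kept. The repair median turned from 0.02 to -0.08 and was above that of all genes under both scalings. The members called higher numbered 3 without knockout replicate 1 or without knockout replicate 2, where 2.67% and 1.52% of all genes were, and 8 without knockout replicate 3 (5.15% of all genes).

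The calls lay in 4 of the 5 arms. Apoptosis genes had 3 of 13 higher (23.1%), feedback 1 of 6 (16.7%), arrest 1 of 8 higher and 1 lower (12.5% each), metabolism 1 of 5 tested (20%) and repair 0 of 3. Over all tested genes 4.33% were higher and 4.54% lower, so 0 calls among 3 genes does not set the repair arm apart. At an unadjusted p under 0.05 in edgeR there were 3 of 6 feedback, 4 of 8 arrest and 6 of 13 apoptosis genes. The same held for 4 of 5 metabolism and 2 of 3 repair genes, against 26.2% of all tested genes. Of the repair genes DESeq2 called 1 and limma-voom 0. Median log2 fold changes were 0.29 for feedback, 0.15 for arrest, 0.15 for apoptosis, 0.33 for metabolism and 0.02 for repair. The median of their sizes regardless of sign was largest for metabolism (0.61) and smallest for apoptosis (0.20), against 0.19 for all tested genes. Differences between arms were not tested. Every arm held genes on both sides of 0 under TMM scaling.

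**Figure D1:**
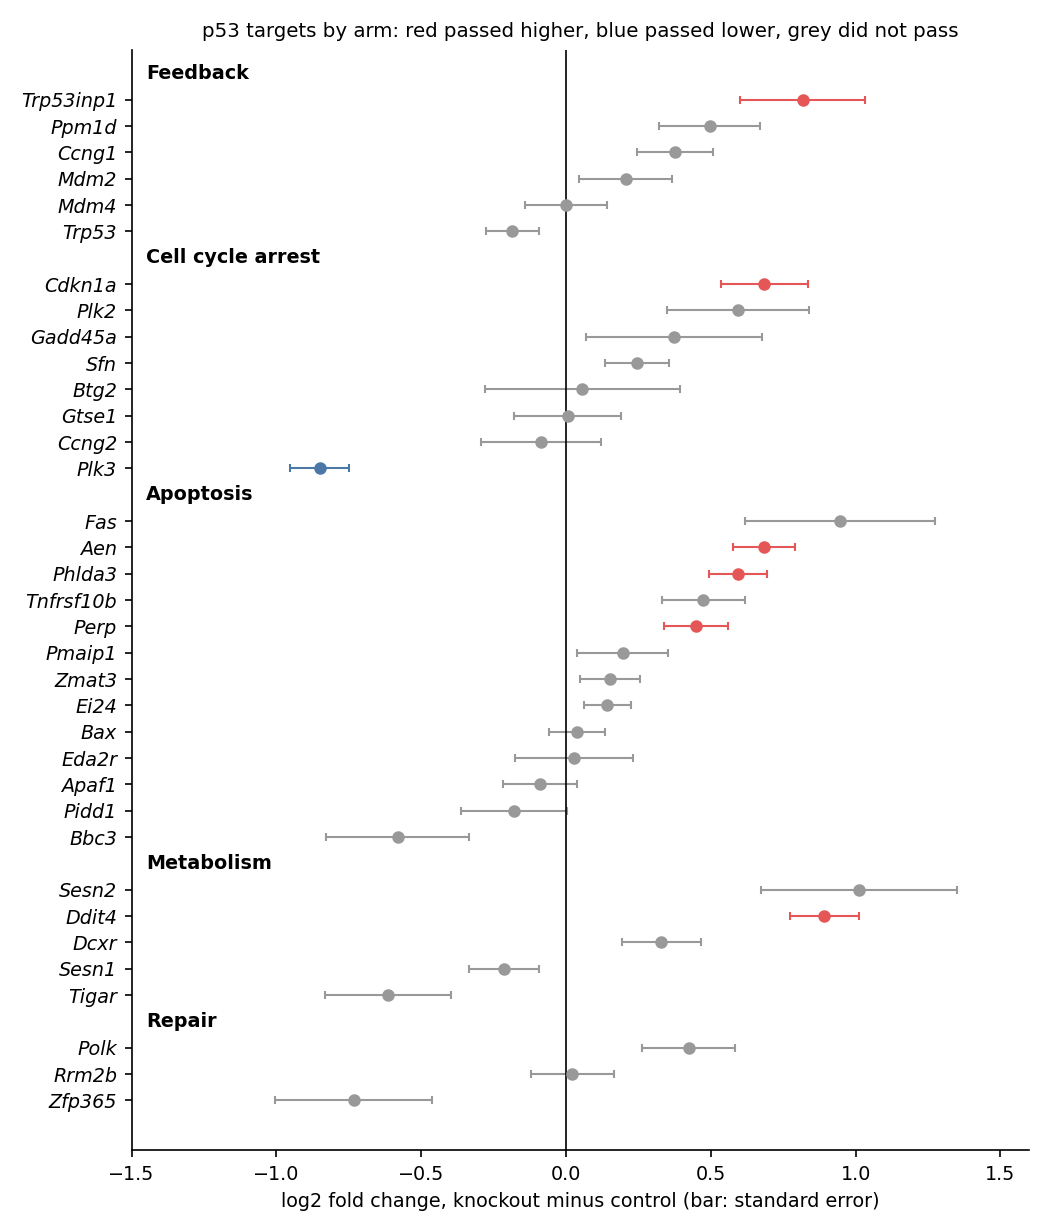
Log2 fold change of each tested member (x axis, knockout minus control, with its standard error as a bar), grouped by arm and ordered by value. The 6 members that passed as higher (red) lie in 4 arms, Plk3 (blue) alone passed as lower, and the repair arm, of only 3 genes, has no call.

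In the feedback arm the mRNA of p53 and of its main inhibitors did not pass the test. Trp53 was at 141, 153, 127 and 143 CPM in control replicates 1 to 4 and at 123.1, 111, 130.4 and 132 CPM in knockout replicates 1 to 4. The groups overlapped, with 2 knockout libraries below all controls, and the log2 fold change was -0.19 (SE 0.09, edgeR adjusted p = 0.2265). Mdm2, the ligase that marks p53 for degradation and the classical readout of p53 activity, was measured at 83.6, 68.7, 49.99 and 63.4 CPM across control libraries against 89.1, 85.8, 65.8 and 65.9 CPM across knockout libraries. Knockout replicates 1 and 2 were above all controls and the other two were within their range (log2 0.21, SE 0.16, edgeR adjusted p = 0.4515). Mdm4, the second inhibitor, had nearly equal means, 180 ± 38.7 CPM in the control and 180 ± 18.5 CPM in the knockout group (mean ± SD, n = 4 libraries per group, as for every ± value that follows, the control given before the knockout).

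Trp53inp1 was the feedback gene that passed. It encodes a stress-induced nuclear protein that promotes the phosphorylation of p53 (chr4:11156441-11174379, mm10). It was measured at 88.2, 74.1, 92.4 and 107.5 CPM across control libraries against 192, 209, 136 and 102 CPM across knockout libraries. Knockout replicate 4 was below control replicate 4, so the groups overlapped, and knockout replicates 1 and 2 were far above the rest. The log2 fold change was 0.82 (SE 0.21, edgeR adjusted p = 0.04591, exact permutation p = 0.0571). Of the 8 fits with 1 library left out, 6 lost the call. It was kept without knockout replicate 3 or 4, and adjusted p lay between 0.01533 and 0.119 over the 8. With only the 5 Y-low libraries it was 0.4175. Ppm1d, the phosphatase that switches p53 and its kinases off, followed the same libraries, at 60.6 and 57.3 CPM in knockout replicates 1 and 2 and 33.95 and 40.3 CPM in replicates 3 and 4, against 30.9 to 36.9 CPM in controls (edgeR adjusted p = 0.1016). Ccng1, a cyclin that brings a phosphatase to Mdm2, was at 43.8 ± 7.90 and 56.9 ± 6.12 CPM (edgeR adjusted p = 0.09613). It passed without control replicate 3 (adjusted p = 0.03403) and Ppm1d without knockout replicate 3 (adjusted p = 0.02753).

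In the arrest arm Cdkn1a rose and Plk3 fell. Cdkn1a (chr17:29090979-29100722, mm10) was measured at 272, 304, 183 and 262 CPM across control libraries against 455.5, 444, 392 and 351 CPM across knockout libraries. All knockouts were above all controls, which was so for 7.95% of tested genes. The rise was 1.61-fold (log2 0.69, SE 0.15, edgeR adjusted p = 0.02246, exact permutation p = 0.0286, the smallest that 4 against 4 allows). Plk3, Perp, Tnfrsf10b, Aen, Phlda3 and Ddit4, described below, reached the same exact permutation p. The call was lost without knockout replicate 1 (adjusted p = 0.05369), without knockout replicate 2 (adjusted p = 0.06894) and when the 3 Y-high libraries were left out (adjusted p = 0.05942). Exons of Cdkn1a share 273 bases with another annotated transcript on the other strand, and the strand setting of the counting is not known.

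Plk3, a polo-like kinase of the stress response (chr4:117128655-117133963, mm10), was measured at 53.7, 65.1, 49.8 and 60.0 CPM across control libraries against 28.6, 31.4, 32.4 and 34.2 CPM across knockout libraries. Every knockout library was far below every control, which was so in direction for 9.00% of tested genes. The fall was 1.80-fold (log2 -0.85, SE 0.10, edgeR adjusted p = 0.002249), and the call held in all 20 alternatives run. Its exons share 84 bases with Tctex1d4 on the other strand, a gene with 0 to 1 counts in each library. Its relative Plk2, a p53-induced kinase of centriole duplication, did not pass, at 241, 237, 158 and 234 CPM across control libraries against 501, 215, 307 and 290 CPM across knockout libraries (log2 0.59, SE 0.24, edgeR adjusted p = 0.1617). The ratio of Plk2 counts to Plk3 counts was 4.49, 3.64, 3.18 and 3.89 in controls and 17.5, 6.84, 9.46 and 8.46 in knockouts. This pair was chosen after its values were seen, and its ratio is given with no test. The ratios of Sesn2 to Sesn1, Mdm2 to Trp53, Bbc3 to Pmaip1 and Ccng1 to Ccng2 were also taken. Each of those overlapped between the groups.

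The other arrest genes did not pass. Sfn, the 14-3-3 protein of stratified epithelia and the member with the highest level per kilobase of merged exon (2293 CPM per kilobase in controls), was at 3699 ± 348 and 4384 ± 394 CPM (edgeR adjusted p = 0.1902). Gadd45a, a growth arrest gene of the damage response, was at 47.4 ± 19.0 and 61.5 ± 16.6 CPM. Btg2, an immediate early antiproliferative gene, was at 729 ± 283 and 758 ± 289 CPM, with libraries from 412 to 1165 CPM. Gtse1, which exports p53 from the nucleus in G2, was at 24.3 ± 3.47 and 24.4 ± 6.43 CPM, and Ccng2, an atypical cyclin, at 32.8 ± 10.5 and 30.9 ± 3.35 CPM.

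**Figure D2:**
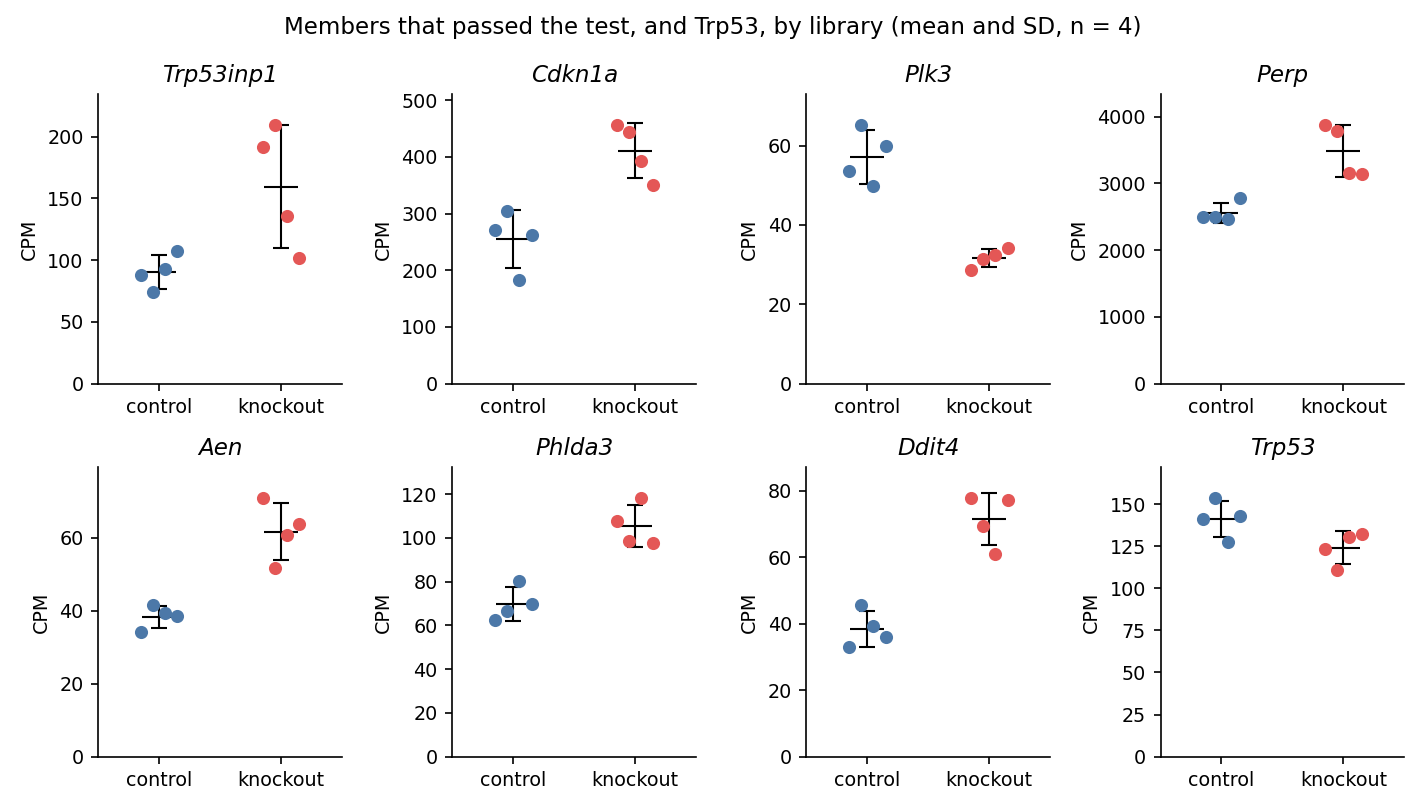
CPM of the 7 members that passed the test and of Trp53 in each library (points, 4 control in blue and 4 knockout in red, replicates 1 to 4 from left to right), with the mean and SD in black. Cdkn1a, Perp, Aen, Phlda3 and Ddit4 have all knockouts above all controls and Plk3 all below, while Trp53inp1 and Trp53 overlap between groups.

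In the apoptosis arm Aen, Phlda3 and Perp rose, while the mitochondrial genes of the BCL2 family did not pass. Aen encodes a nuclease that degrades DNA and RNA in dying cells (chr7:78895927-78911209, mm10). It was measured at 34.2, 41.4, 39.3 and 38.5 CPM across control libraries against 70.7, 51.6, 60.6 and 63.7 CPM across knockout libraries, without overlap, a 1.61-fold rise (log2 0.68, SE 0.11, edgeR adjusted p = 0.006217). Phlda3, a membrane-binding protein that holds back the survival kinase AKT (chr1:135766085-135769134, mm10), was measured at 62.4, 66.6, 80.4 and 69.9 CPM across control libraries against 108, 98.4, 118 and 97.8 CPM across knockout libraries. These groups did not overlap either, and the rise was 1.51-fold (log2 0.60, SE 0.10, edgeR adjusted p = 0.007454). Both calls held in all 20 alternatives run.

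Perp, a tetraspan membrane protein that is also a component of desmosomes in stratified epithelia (chr10:18845071-18857073, mm10), was measured at 2490, 2491, 2463 and 2781 CPM across control libraries against 3870, 3788, 3162 and 3139 CPM across knockout libraries. All knockouts exceeded all controls, by most in replicates 1 and 2, and the rise was 1.36-fold (log2 0.45, SE 0.11, edgeR adjusted p = 0.03216). The call was lost without control replicate 1, 2 or 3 and without knockout replicate 1 or 2, with adjusted p from 0.03185 to 0.1035 over the fits that left out 1 library. Restricted to the 5 Y-low libraries, adjusted p was 0.2783. The summed suprabasal markers were also higher in all knockout libraries than in all controls (14790 to 19290 against 8604 to 13830 CPM). They were at 16100, 19290, 14790 and 16570 CPM in knockout replicates 1 to 4, and their part in the rise of Perp was not tested.

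Among the receptors of the TNF receptor family, Tnfrsf10b and Fas are death receptors and Eda2r has no death domain. Tnfrsf10b, the receptor for TRAIL, was measured at 17.2, 17.2, 14.8 and 17.1 CPM across control libraries against 29.8, 22.1, 18.7 and 21.5 CPM across knockout libraries. Its groups did not overlap, but it did not pass (log2 0.47, SE 0.14, edgeR adjusted p = 0.06447), and without knockout replicate 3 it did (adjusted p = 0.03711). Fas, the receptor for FAS ligand, was measured at 25.2, 10.7, 8.78 and 18.3 CPM across control libraries against 29.1, 41.6, 24.2 and 26.6 CPM across knockout libraries. The spread within controls was wide and the groups overlapped through control replicate 1 (log2 0.95, SE 0.33, edgeR adjusted p = 0.1077). Fas passed without that library (adjusted p = 0.03584), and DESeq2 called both Fas (adjusted p = 0.01323) and Tnfrsf10b (adjusted p = 0.02314). Eda2r, the receptor for the A2 form of ectodysplasin, was at 3.72 ± 0.869 and 3.80 ± 0.481 CPM.

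Among the genes that act at mitochondria, Bax, which opens the outer membrane, was at 26.3 ± 2.04 and 27.0 ± 1.81 CPM (log2 0.04, SE 0.10). Its BH3-only activators had fold changes of opposite sign that did not pass. Bbc3 (PUMA) was at 29.0 ± 9.59 and 19.4 ± 4.03 CPM (log2 -0.58, SE 0.25, edgeR adjusted p = 0.1717), and passed as lower without control replicate 3 (adjusted p = 0.02348). Pmaip1 (NOXA) was at 167 ± 33.1 and 192 ± 33.1 CPM (edgeR adjusted p = 0.4674). Apaf1, the scaffold of the apoptosome, was at 16.2 ± 1.86 and 15.2 ± 1.80 CPM, and Pidd1, the scaffold that activates caspase-2, at 7.16 ± 1.19 and 6.32 ± 1.24 CPM. Zmat3, an RNA-binding zinc finger protein, and Ei24, a protein of the endoplasmic reticulum, had log2 fold changes of 0.15 (SE 0.10) and 0.14 (SE 0.08) and did not pass.

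The metabolism arm had the widest range, from -0.61 to 1.01 on the log2 scale. Ddit4 (REDD1), an inhibitor of mTORC1 that hypoxia, glucocorticoids and the integrated stress response also induce (chr10:59949675-59951770, mm10), was measured at 32.9, 45.7, 39.2 and 36.1 CPM across control libraries against 77.7, 69.6, 61.1 and 77.3 CPM across knockout libraries. Every knockout was above every control, and the rise was 1.86-fold (log2 0.89, SE 0.12, edgeR adjusted p = 0.003376). The call held in all 20 alternatives run. Sesn2, a sestrin that signals amino acid shortage to mTORC1, had the highest log2 fold change of all members but did not pass (1.01, SE 0.34, edgeR adjusted p = 0.1). It was measured at 60.2, 49.1, 27.7 and 85.6 CPM across control libraries against 138, 144, 78.9 and 88.8 CPM across knockout libraries, so that control replicate 4 lay inside the knockout range. DESeq2 called it (adjusted p = 0.007512). Sesn1, its relative, was at 31.3 ± 5.18 and 27.0 ± 1.86 CPM (log2 -0.22, SE 0.12).

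Tigar, which lowers fructose-2,6-bisphosphate and so slows glycolysis, was measured at 12.8, 16.6, 17.3 and 12.3 CPM across control libraries against 6.52, 7.83, 11.0 and 13.1 CPM across knockout libraries. Knockout replicate 4 was within the control range, and the difference did not pass (log2 -0.61, SE 0.22, edgeR adjusted p = 0.1041). Limma-voom with quality weights called Tigar lower (adjusted p = 0.04831), and the other 19 of 20 alternatives did not. Dcxr, a carbonyl and xylulose reductase, was at 11.0 ± 1.54 and 13.8 ± 1.47 CPM (edgeR adjusted p = 0.1565). Gdf15, a secreted stress hormone and a common marker of p53 activity, had 0 to 3 counts in any library and was not tested, so no difference was detectable at this depth.

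In the repair arm no gene passed. Polk, a polymerase that copies across damaged bases, was measured at 21.1, 21.7, 28.03 and 16.04 CPM across control libraries against 26.5, 26.0, 30.1 and 33.9 CPM across knockout libraries. The groups overlapped through control replicate 3 (log2 0.42, SE 0.16, edgeR adjusted p = 0.1242), without which it passed (adjusted p = 0.03931). Zfp365, a gene linked to genome stability, was measured at 22.8, 30.7, 16.6 and 22.9 CPM across control libraries against 9.38, 22.2, 12.5 and 11.8 CPM across knockout libraries. Knockout replicate 2 stood at the level of the controls (log2 -0.73, SE 0.27, edgeR adjusted p = 0.1208), and Zfp365 passed as lower without it (adjusted p = 0.02811). With all libraries, DESeq2 (adjusted p = 0.04778) and edgeR with a replicate block (adjusted p = 0.03972) also called Zfp365 lower. In the other 17 of 20 alternatives it did not pass. Rrm2b, the p53-induced subunit of ribonucleotide reductase, was at 10.45 ± 1.081 and 10.6 ± 1.64 CPM.

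**Figure D3:**
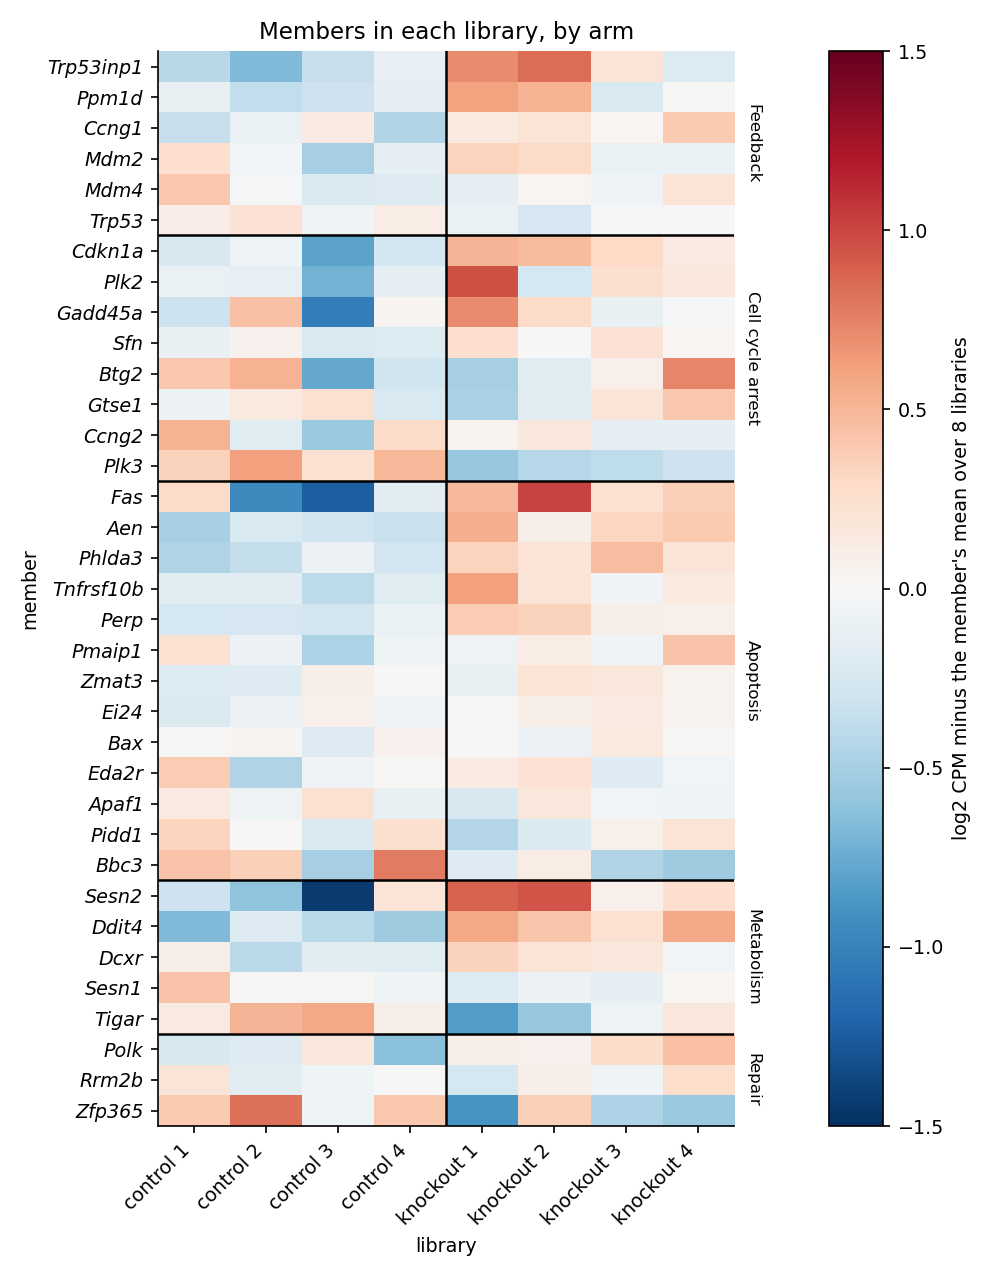
Log2 CPM of each tested member in each library (columns) minus the member's mean over the 8 libraries, with rows grouped by arm and ordered by fold change. Knockout replicates 1 and 2 are the reddest for Trp53inp1, Ppm1d and Sesn2, and Plk3 is blue in every knockout.

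The members that passed differed in how much they rested on single libraries. Plk3, Aen, Phlda3 and Ddit4 passed in all 8 fits with 1 library left out, Cdkn1a in 6, Perp in 3 and Trp53inp1 in 2. With only the 5 Y-low libraries (2 control and 3 knockout), the same 4 passed together with Ccng1 (adjusted p = 0.04078), among 383 calls of 13256 tested genes (2.89%). Settings that keep all libraries called 6 to 12 members. DESeq2 called 11 (9 higher, 2 lower; all genes 14.1%, lower 6.49%) and limma-voom 6 (all genes 8.46%), while limma-voom with quality weights called 12 (all genes 14.3%, higher 7.02%, lower 7.31%). RLE and upper-quartile scaling, library totals, a filter of 1 CPM in 4 libraries and a non-robust dispersion each called the same number as reported, 7, with 8.60%, 9.09%, 10.5%, 8.97% and 9.04% of all genes. Without a filter 6 were called (5.90%), with a term for Y-high libraries 6 (8.25%) and with a replicate block 6, of which 2 were lower (5.55%, lower 2.67%). Leaving out control replicate 1, 2, 3 or 4 left 7.08%, 4.18%, 6.52% and 5.86% of all genes called, and leaving out knockout replicate 1, 2, 3 or 4 left 5.44%, 3.51%, 9.46% and 5.88%. A second member was lower without control replicate 3 (Bbc3, where 3.82% of all genes were lower) and without knockout replicate 2 (Zfp365, 1.99%).

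**Figure D4:**
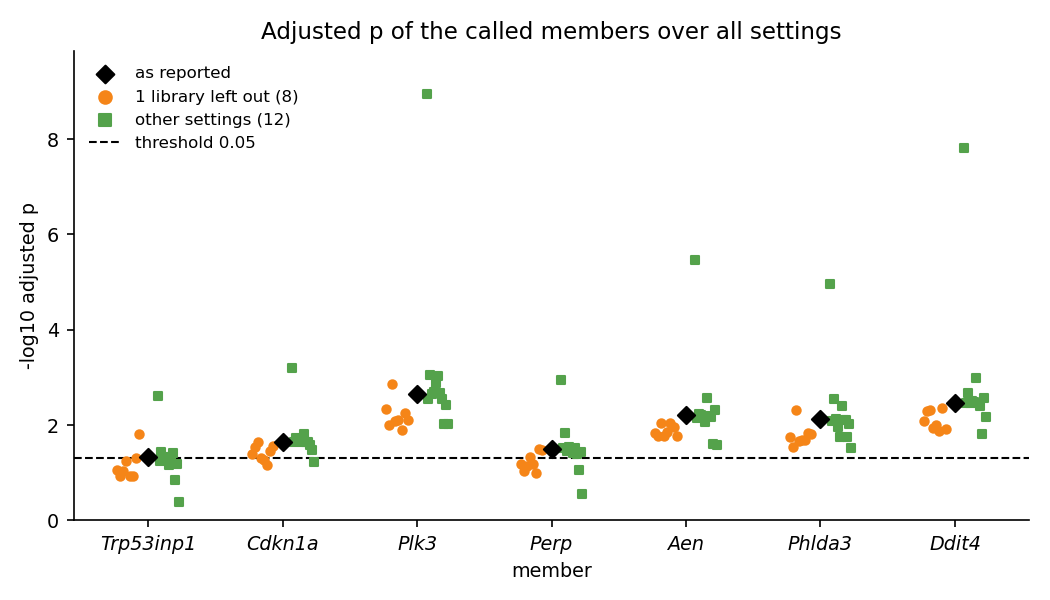
Adjusted p of the 7 called members (y axis, -log10) as reported (black), in the 8 fits that leave out 1 library (orange) and in the 12 other settings (green), with the threshold of 0.05 dashed. Plk3, Aen, Phlda3 and Ddit4 stay above the line in every setting, and Trp53inp1 is the closest to it as reported (0.04591).

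Genes upstream of p53 were compared next. Of 25 tested regulators and relatives of p53, 2 were called higher, 1 lower and 22 did not pass (12% called, median log2 fold change -0.01). Over all tested genes 8.87% were called, with a median of -0.02. Daxx, a chaperone of histone H3.3 that also binds Mdm2, rose from 38.1 ± 3.35 to 55.0 ± 5.59 CPM (edgeR adjusted p = 0.01129), and Rfwd2 (COP1), a ubiquitin ligase that targets p53, rose from 95.2 ± 7.75 to 120.4 ± 5.001 CPM (edgeR adjusted p = 0.03317). Trp73, the p53 relative p73, fell from 50.9 ± 8.77 to 32.9 ± 6.72 CPM (edgeR adjusted p = 0.04208). Trp63, the relative that maintains stratified epithelia and can bind the same elements, is named outside the naming rule and was at 791 CPM in the control and 775 CPM in the knockout group (edgeR adjusted p = 0.8638).

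Of 21 tested further p53 targets that are not members, 1 was higher, 2 were lower and 18 did not pass, with a median of -0.07. Sulf2, an extracellular sulfatase, rose from 12.8 ± 2.35 to 24.9 ± 3.47 CPM (edgeR adjusted p = 0.006426). Ak1, an adenylate kinase, fell from 7.35 ± 0.543 to 3.77 ± 0.751 CPM (edgeR adjusted p = 0.008913), and Steap3, a metalloreductase, from 22.8 ± 4.50 to 15.8 ± 1.53 CPM (edgeR adjusted p = 0.04873). The share called was 14.3%, and 42.9% had a positive log2 fold change, against 20% and 74.3% for the members. Over all tested genes these shares were 8.87% and 46.9%.

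Downstream of p21, edgeR and limma-voom called 0 of 22 tested cyclins, CDKs and CDK inhibitors and DESeq2 called 1. In edgeR 4 of them (18.2%) had an unadjusted p under 0.05. Of all genes 26.2% had such a value in edgeR, and 8.87% were called. Pcna, the sliding clamp of replication, was at 211 ± 17.5 and 190 ± 11.2 CPM, and the D-type cyclin Ccnd2 at 214 ± 40.8 and 179 ± 33.3 CPM. Of 20 tested genes that p53 represses through p21 and the DREAM complex, 18 did not pass, and the median of the list was 0.11. The other 2 were higher (10%, against 4.33% of all genes). They were Cdc20, an activator of the anaphase-promoting complex, at a log2 difference of 0.39 (SE 0.09, edgeR adjusted p = 0.02125), and Prc1, which bundles spindle microtubules, with 0.39 (SE 0.10, edgeR adjusted p = 0.03589). Of the 20, 19 (95%) had a positive log2 fold change, against 46.9% of all genes. With library totals in place of TMM 11 of the 20 were positive, the median was 0.01 and none passed. The median over all genes was -0.02 with TMM and -0.13 with library totals, so the median of this list was above it under both.

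Of 23 tested genes of the apoptosis machinery outside the members, 22 did not pass, and the median of the list was -0.09. Only 1 was lower (4.35%, against 4.54% of all genes). The 1 was Bmf, a BH3-only gene at a low level, which fell from 2.11 ± 0.182 to 1.18 ± 0.277 CPM (edgeR adjusted p = 0.04535), and no gene of the list was called in 10 of the 20 alternatives. Of 19 tested mTORC1 inputs and outputs, 1 was higher, 1 lower and 17 did not pass (10.5% called, against 8.87% of all genes). Ddit4l, the paralog of Ddit4, rose from 0.197 ± 0.0998 to 1.02 ± 0.294 CPM (log2 2.36, SE 0.38, edgeR adjusted p = 0.006666), a low level throughout. Gatsl3 (CASTOR1), an arginine sensor that restrains mTORC1, fell from 22.4 ± 2.20 to 13.5 ± 1.77 CPM (edgeR adjusted p = 0.00761). The list of ATF4 targets, a group that shares stress inputs with Ddit4 and Sesn2, had 18 tested genes, with Atf4 itself among them. Of these, Chac1, which degrades glutathione, rose from 1.99 ± 0.248 to 5.88 ± 2.70 CPM (edgeR adjusted p = 0.01374). The other 17 did not pass (5.56% called, against 8.87% of all genes), and 9 of the 18 were on each side of 0. Atf4, named outside the naming rule, was at 440 ± 134 and 660 ± 62.4 CPM (edgeR adjusted p = 0.1045). Its knockout libraries were all above the controls, which was so for 7.95% of tested genes. At an unadjusted p under 0.05 there were 9 of the 18, some higher and some lower, or 50%, against 26.2% of all genes. Counting both directions, 4 were called with DESeq2 (all genes 14.1%), 5 with limma-voom and quality weights (14.3%) and 5 with library totals (10.5%). With library totals, 370 of the calls over all genes were higher and 997 lower. The number was 3 with upper-quartile scaling (all genes 9.09%) or without knockout replicate 1 (5.44%). With a term for Y-high libraries (8.25%) or without control replicate 4 (5.86%) it was 2. With only the 5 Y-low libraries (2.89%) it was 0.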

How the data were processed

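The authors deposited raw counts, whole numbers for each gene symbol. The submitters' processing notes name the build mm10 and the tools TopHat2 2.1.0 and SAMtools 0.1.18 with Trimmomatic 0.35 and FastQC 0.11.4; counter, annotation and strand setting are not given in the sources used here. Summary lines for reads outside genes (15.7 to 21.75%) and for ambiguous reads (0.9183 to 1.111%) were dropped. For knockout replicate 4 the title and the file carry different numbers, and the title was followed. Nothing in the labels says that replicates are separate animals, so each p-value reflects only variation among these libraries. Each group held both Y-high and Y-low libraries, so the libraries of a group were not all repeats of the same sample. Whether some of them are technical repeats is not known. Same-numbered libraries did not deviate together.

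Counts were filtered with filterByExpr, scaled by TMM and tested with edgeR 4.0.16 (quasi-likelihood, robust, genotype only; R 4.3.3), with Benjamini-Hochberg adjustment over all tested genes and a threshold of 0.05. DESeq2 1.42.0 and limma 3.58.1 were alternatives. Standard errors are the log2 fold change divided by the root of the F statistic. An exact permutation test (two-sided, 70 regroupings) was added for single members. The steps were tested on simulated data. Per-length levels use merged GENCODE M21 exons. Members, lists and alternatives were chosen with earlier results of these data known. Values in every library are given for members that passed or did not overlap, Trp53, Mdm2 and the member with the highest mean of an arm without calls (Polk); the other members printed by library (Ppm1d, Plk2, Fas, Sesn2, Tigar and Zfp365) were chosen after their values were seen. In other lists up to 4 called genes, or the 2 with the highest mean, are named. Rfwd2, Setd8 and Gatsl3 were found under these older symbols. Flg and Ly6g were not analysed here.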

Additional observations from a re-analysis of the deposited data

Results flagged for a closer look

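In 4 of the 70 member groups of 4 libraries, 1 library stood apart from the other 3 by more than Dixon's 95% critical value, and chance flags about 1 in 20 such groups. Plk2 was at 158.2 CPM in control replicate 3, against 233.5 to 241 CPM in the other controls. Perp was at 2781 CPM in control replicate 4, against 2463 to 2491 CPM, so the highest control was still below the lowest knockout. Tnfrsf10b was at 14.76 CPM in control replicate 3, against 17.06 to 17.22 CPM. Sesn1 was at 38.98 CPM in control replicate 1, against 27.66 to 29.29 CPM.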

How the results depend on the processing

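Plk3, Aen, Phlda3 and Ddit4 kept their call and direction in all 20 alternatives; Cdkn1a lost it in 3, Perp in 7 and Trp53inp1 in 11. The same-numbered libraries of the 2 groups did not deviate together (correlations over genes of -0.173, -0.228, -0.053 and -0.061), so the numbers were not taken as pairs. Pairs with unlike numbers had correlations from -0.11 to 0.25, the highest for control replicate 4 with knockout replicate 2. No pairing under other numbers was tested. With a replicate block 4 members were higher and 2 lower, feedback had 0 calls, repair 1 and the apoptosis machinery 0, with Perp at an adjusted p of 0.08567 and Trp53inp1 at 0.1424.

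DESeq2 gave 2 lower members, apoptosis 5, metabolism 2, repair 1, further p53 targets 5, cyclins 1, apoptosis machinery 2 and ATF4 targets 4. Limma-voom gave feedback 0 and, with quality weights, 10 higher and 2 lower members, feedback 2, apoptosis 5, metabolism 3, cyclins 1, DREAM genes 4 and ATF4 targets 5. Upper-quartile scaling gave ATF4 targets 3. Library totals gave cyclins 1, DREAM genes 0, apoptosis machinery 2 and ATF4 targets 5. Without a filter feedback and apoptosis machinery had 0, and with a filter of 1 CPM mTORC1 genes had 1. With a term for Y-high libraries feedback had 0, cyclins 1, DREAM genes 1, apoptosis machinery 0 and ATF4 targets 2. In the 5 Y-low libraries arrest had 1, p53 regulators 1, DREAM genes 1, apoptosis machinery 0, mTORC1 genes 1 and ATF4 targets 0, with fewer samples in the fit. Leaving out 1 library gave 3 to 8 higher and 1 to 2 lower members, feedback 0 to 2, arrest 1 to 2, apoptosis 2 to 4, repair 0 to 1, p53 regulators 1 to 4, further targets 2 to 3, cyclins 0 to 1, DREAM genes 0 to 2, apoptosis machinery 0 to 1, mTORC1 genes 2 to 3 and ATF4 targets 1 to 3. Except where fewer samples or genes entered, the cause was not tested.

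The sign reversed for 9 members that were never called. Log2 fold changes in the order limma-voom, quality weights, upper quartile, library totals, 1 CPM filter, replicate block and Y term were -0.0113, -0.0208, -0.0403, -0.0914, -3e-04, -0.0235 and -0.0146 for Gtse1. With quality weights they were 0.0164 for Ccng2, -0.083 for Btg2, -0.0157 for Bax and 0.0173 for Apaf1. With upper-quartile scaling they were -0.0121 for Bax, -0.0515 for Mdm4, -0.0291 for Eda2r and -0.0288 for Rrm2b, and with library totals -0.0658, -0.1042, -0.0852 and -0.081, with -0.0341 for Btg2. Mdm4 was at -0.0055 with the 1 CPM filter. With the Y term they were -0.0662 for Btg2, -0.0544 for Mdm4, -0.0068 for Eda2r and -0.0515 for Rrm2b, and in the 5 Y-low libraries -0.0063 for Bax, 0.0062 for Apaf1, -0.0733 for Mdm4, -0.2093 for Eda2r and -0.0188 for Mdm2. Over the fits that left out 1 library the values ran from -0.0674 to 0.1608 for Mdm4, -0.2461 to 0.1012 for Ccng2, -0.2193 to 0.2499 for Btg2, -0.1381 to 0.1465 for Gtse1, -0.014 to 0.0747 for Bax, -0.0953 to 0.1797 for Eda2r and -0.06 to 0.1116 for Rrm2b. Depth limits Gdf15, at 0 to 3 counts.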

Other observations

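Among the 35 tested members, control replicate 3 had the lowest value of its group for 19 and the highest for 8. It had the lowest value of all 8 libraries for 14 and the highest for 2. Members lowest there among controls included Cdkn1a, Mdm2, Sesn2, Fas, Plk2 and Gadd45a, and members highest there included Ccng1, Phlda3, Ei24 and Polk. The same counts over all genes were not made. Knockout replicate 1 had the highest value of all 8 for 11 members and the lowest for 8. The mean deviation over the 35 (log2 CPM minus each member's own mean) was 0.01, -0.06, -0.28 and -0.06 in control replicates 1 to 4 and 0.10, 0.15, 0.03 and 0.11 in knockout replicates 1 to 4. The ratio of Mdm2 counts to Trp53 counts was 0.592, 0.448, 0.393 and 0.443 in controls and 0.723, 0.775, 0.505 and 0.498 in knockouts, with control replicate 1 inside the knockout range.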
